A study of Homo sapiens with 6 samples.

Results

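The vehicle-treated U373MG cells comprised 3 of the 6 arrays of the series, and were chosen by their label, DMSO. U373MG is an established human glioblastoma line. Gene expression was measured on the Human Gene 1.0 ST array in 3 experiments, each composed of 1 vehicle array and 1 compound array. In the ET-770 experiment the vehicle was matched to cells exposed to ET-770 at 4.83 nM, in the ET-770-DR experiment to cells exposed to ET-770-DR, a derivative of ET-770, at 1.70 nM, and in the RM experiment to cells exposed to renieramycin M (RM) at 3.10 nM. All cells were exposed for 24 hours and were cultured in DMEM with 10% FBS. The 3 vehicle arrays therefore carried the same nominal condition, and the comparison asked which transcripts the line expressed in every experiment and which differed between the vehicle cultures. Each vehicle culture was measured on 1 array, so a difference between 2 vehicles has no replicate error of its own and no p-value is given for it.

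Glioblastoma is a malignant tumor of the astrocytic lineage, and lines derived from it often grow as adherent cells with mesenchymal features. The interferon response is an antiviral program that most cell types can switch on. Type I interferons bind the receptor IFNAR1-IFNAR2, the kinases JAK1 and TYK2 are activated, and a transcription factor complex that contains IRF9 then binds the interferon-stimulated response element in the promoters of its target genes. The targets include antiviral effectors such as the MX and OAS proteins, and also the RNA sensors and the factors that sustain the pathway.

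Signals are given on the log2 scale in the order of the vehicles of ET-770, ET-770-DR and RM, after quantile normalization of the 3 vehicle arrays together, and 1 unit is a doubling. The deposited medians over all probes were 7.28, 6.68 and 6.63, so the array of ET-770 lay above the other two before normalization. On the deposited scale the median gene differed by -0.66 between the vehicles of ET-770-DR and ET-770, by -0.66 between those of RM and ET-770, and by -0.01 between those of RM and ET-770-DR. After normalization these medians were -0.04, -0.07 and -0.03. A transcript's level was set against the 341 olfactory receptor genes, which are used by the sensory neurons of the nose, and the 95th percentile of their signals (6.32, 6.13 and 6.07) served as an empirical background. Signals of different genes also depend on their probes and were not read as relative amounts of transcript.

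Of 18417 genes, 12616 (68.5%) were above the olfactory receptor level in all 3 vehicles and 4277 (23.2%) in none. In the top 10% of each vehicle array there were 1234 genes (6.70%). The highest mean signals were those of the glycolytic enzymes GAPDH (14.11) and ENO1 (13.88), the chaperone HSPA8 (13.83), the cytoplasmic actins ACTG1 (13.75) and ACTB (13.70), the tubulin TUBB (13.68), the small heat shock protein HSPB1 (13.61), the elongation factor EEF1A1 (13.58), the ubiquitin gene UBB (13.54), the metal-binding MT2A (13.49), the ribosomal protein gene RPL8 (13.44) and the pyruvate kinase PKM (13.40). They were followed by the ribosomal protein pseudogene RPL13AP5 (13.40), the actin crosslinker ACTN4 (13.34) and the adaptor protein gene YWHAQ (13.33). GAPDH differed little between the vehicles, at 14.21, 14.05 and 14.08. MT2A was at 13.79, 13.80 and 12.87 and was called lower in the RM experiment than in each of the others (limma, adjusted p = 0.0020 and 0.0044). By role, the top 10% in all vehicles held 23 of 31 cytoskeletal genes (74.2%), 20 of 32 translation factors (62.5%), 12 of 21 glycolytic enzymes (57.1%), 35 of 64 cytosolic ribosomal proteins (54.7%) and 18 of 35 lysosomal and autophagy genes (51.4%), against 6.70% of all genes.

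The label was checked against cell type markers. Of 11 mesenchymal markers measured, 10 were above the olfactory receptor level in every vehicle, among them the intermediate filament vimentin (VIM, 13.27, 13.14 and 13.43) and the hyaluronan receptor CD44 (13.32, 13.27 and 12.78). Of 12 astrocyte markers, 9 were above it. Of all genes 68.5% passed this level in every vehicle, a share near that of the astrocyte markers. GFAP, the intermediate filament that defines astrocytes, was at 7.31, 7.57 and 7.16, above the olfactory receptor level but outside the top 10%. SOX9, a glial transcription factor, was at 11.01, 10.68 and 10.01, while the water channel AQP4 (4.48, 4.89 and 4.38) and the glutamate transporter SLC1A2 (4.77, 4.78 and 5.13) lay below the olfactory receptor level. Among markers of other cell types, most immune, endothelial, epithelial and oligodendrocyte markers did not pass the olfactory receptor level in every vehicle. Most neuronal markers did pass it, so the check did not set the cells apart from neurons. Above the olfactory receptor level in all vehicles were 5 of 9 neuronal, 3 of 7 oligodendrocyte, 2 of 10 immune, 2 of 7 endothelial and 1 of 5 epithelial markers. The leukocyte antigen PTPRC (3.98, 3.93 and 3.67), the endothelial PECAM1 (3.88, 4.00 and 3.96) and the epithelial EPCAM (4.44, 4.08 and 4.32) were in the range of the olfactory receptors in each vehicle.

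**Figure D1:**
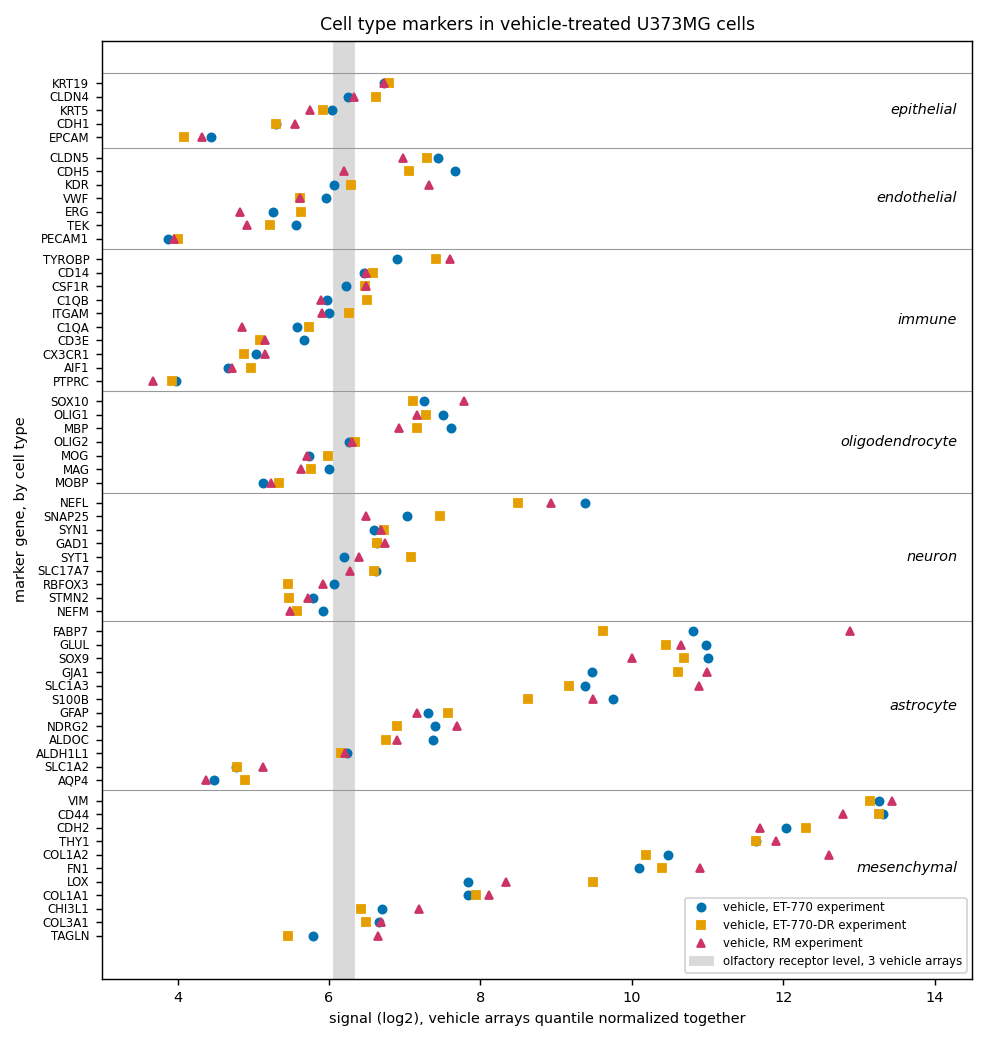
Signal (log2, x axis) of each cell type marker (y axis, grouped by cell type) in the vehicles of the ET-770, ET-770-DR and RM experiments; the gray band spans the olfactory receptor level of the 3 arrays. VIM and CD44 sit near 13 in all vehicles, PTPRC, PECAM1 and EPCAM lie left of the band, and FABP7 and COL1A2 stand to the right in the vehicle of RM.

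Most genes varied little between the vehicles. The SD over the 3 arrays had a median of 0.27, a 1.21-fold change, and 15357 genes (83.4%) ranged over less than 2-fold. The range passed 3-fold for 711 genes (3.86%). The vehicles of ET-770 and ET-770-DR were the closest pair (r = 0.987 across genes, which are not independent replicates), and that of RM was farther from both (r = 0.952 and 0.951). In the vehicle of ET-770-DR 8 genes (0.0434%) were more than 3-fold above and 13 genes (0.0706%) more than 3-fold below the vehicle of ET-770. In the vehicle of RM 260 genes (1.41%) were as far above and 237 (1.29%) as far below the vehicle of ET-770, and 291 (1.58%) lay above and 208 (1.13%) below the vehicle of ET-770-DR. The split between higher and lower depended on the scaling. It was 52.3% higher for RM against ET-770 after quantile normalization, 6.70% on the deposited scale and 72.2% with each array centered on its median. For RM against ET-770-DR the shares were 58.3%, 75.0% and 79.2%, and for ET-770-DR against ET-770 38.1%, 0.0% and 26.7%.

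**Figure D2:**
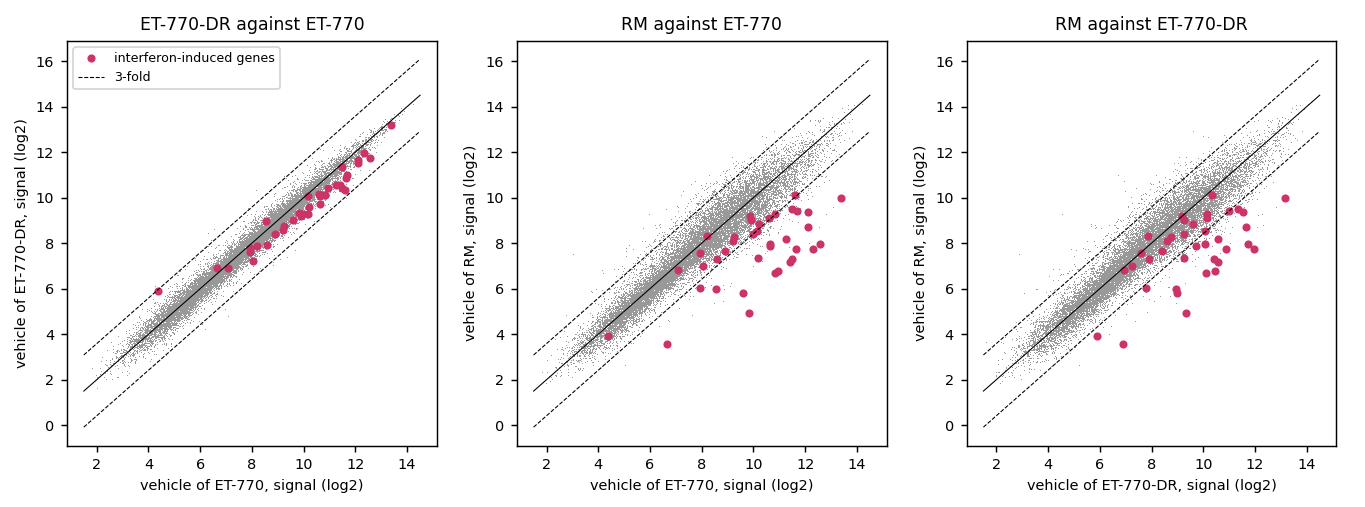
Signal (log2) of each of the 18417 genes in 1 vehicle against another, for the 3 pairs of vehicles; the solid line marks equality, the dashed lines 3-fold, and the colored points the 38 interferon-induced genes. In both panels with the vehicle of RM many of the colored points fall below the lower dashed line, and in the panel of ET-770-DR against ET-770 none does.

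A test was possible only for whole experiments. The 3 experiments were compared with limma on all 6 arrays with treatment as a term, so that the compound array served as the second array of its experiment, and differences between the compounds counted as spread. By this test RM was higher than ET-770 for 3282 genes (17.8%) and lower for 3807 (20.7%), and higher than ET-770-DR for 3806 (20.7%) and lower for 3479 (18.9%). ET-770-DR was higher than ET-770 for 447 genes (2.43%) and lower for 659 (3.58%). The 1106 genes called between ET-770-DR and ET-770 became 73 without the vehicle of ET-770 and 3476 without that of RM, and the 7089 called between RM and ET-770 became 3664 without the vehicle of ET-770. Without the treatment term the calls fell to 0 for ET-770-DR against ET-770 (2399 at an unadjusted p under 0.05), 2152 for RM against ET-770 and 2242 for RM against ET-770-DR. With 1 vehicle and 1 compound array in each experiment, the culture and the array processing cannot be told apart, and the p-values measure only the spread between these arrays, which may be technical.

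Among the lists examined, the interferon response had the largest median difference between each pair of vehicles. Of 41 interferon-induced genes listed, 38 were measured. In the vehicle of RM 23 of them were more than 3-fold below the vehicle of ET-770, 22 below that of ET-770-DR, and 21 below both. Of all genes 134 (0.728%) were more than 3-fold below both. None of the 38 was over 3-fold in the vehicle of RM against either, and 36 of 38 were lowest there, compared with 8089 (43.9%) of all genes. The median signal of the list was 10.18, 9.65 and 7.91. The median difference was -2.12 between RM and ET-770 and -1.83 between RM and ET-770-DR. Between ET-770-DR and ET-770 it was -0.60, and no member passed 3-fold. By limma, 34 members were lower and 0 higher in RM than in ET-770, 31 lower and 0 higher in RM than in ET-770-DR, and 30 lower in both. Of all genes 20.7% were lower in RM than in ET-770 and 18.9% lower than in ET-770-DR. Lower than in both were 2525 of 18417 genes.

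The promoters of 6 of these genes are shown because their letters match the element that the interferon-induced complex is known to bind. Each is the 170 bases before the gene's start in RefSeq (GRCh38.p14), read 5′ to 3′ along the gene's strand, with matches to the core of the interferon-stimulated response element in capitals. The core was searched as 2 copies of GAAA with any 2 bases between them, on either strand, so that it reads as TTTC on the other strand. The 6 stood lowest in the vehicle of RM among members with a match in this stretch, and members without one were passed over. RSAD2 and IFI27 have 2 start windows each, and the window with most matches is shown. In BST2 a pair of matches overlaps. IFITM1 has a further match that begins at -6 and crosses the start of the gene, and it is not marked.
RSAD2, chr2:6877607-6877776, plus strand: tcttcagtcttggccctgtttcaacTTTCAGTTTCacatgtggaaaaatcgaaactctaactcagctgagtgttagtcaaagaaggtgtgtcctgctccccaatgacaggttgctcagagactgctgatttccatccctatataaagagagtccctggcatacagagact
IFITM1, chr11:313870-314039, plus strand: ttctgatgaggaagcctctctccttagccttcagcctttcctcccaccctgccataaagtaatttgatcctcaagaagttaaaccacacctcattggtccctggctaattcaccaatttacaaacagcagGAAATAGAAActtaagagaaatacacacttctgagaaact
IFI44L, chr1:78620278-78620447, plus strand: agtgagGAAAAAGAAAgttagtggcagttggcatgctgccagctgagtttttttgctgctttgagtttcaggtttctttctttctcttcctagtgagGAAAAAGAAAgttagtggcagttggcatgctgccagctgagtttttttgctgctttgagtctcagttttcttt
IFI27, chr14:94110566-94110735, plus strand: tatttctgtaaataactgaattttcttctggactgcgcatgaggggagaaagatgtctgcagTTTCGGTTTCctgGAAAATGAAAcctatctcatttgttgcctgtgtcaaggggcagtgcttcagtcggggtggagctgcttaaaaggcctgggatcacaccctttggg
IFI6, chr1:27672193-27672362, minus strand: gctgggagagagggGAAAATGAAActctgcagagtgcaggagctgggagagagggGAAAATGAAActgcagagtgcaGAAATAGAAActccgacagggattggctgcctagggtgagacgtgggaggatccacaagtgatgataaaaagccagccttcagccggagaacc
BST2, chr19:17405631-17405800, minus strand: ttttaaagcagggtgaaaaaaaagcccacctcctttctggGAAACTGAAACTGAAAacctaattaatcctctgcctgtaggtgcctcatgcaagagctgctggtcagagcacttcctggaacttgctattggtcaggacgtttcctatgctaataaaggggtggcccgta
RSAD2 carries 1 match, reading on the other strand, that begins at -145 from the start. IFI6 carries 3, the farthest at -156. Within 250 bases before to 50 after the start, 21 of 30 interferon-induced genes with a window had a match (70.0%), compared with 587 of 14239 measured genes (4.12%) and 1255 of all 35116 windows (3.57%). The list was assembled from known interferon-induced genes, so the share describes the list. Among its members more than 3-fold below both others in the vehicle of RM, 12 of 17 had a match (70.6%), and among its other members 9 of 13 (69.2%). Of all 93 genes with a window that were more than 3-fold below both, 19 had a match (20.4%). After the listed genes were taken out, 7 of 76 did (9.21%). Of 118 genes more than 3-fold above both, 4 did (3.39%). A match marks letters only and no binding.

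RSAD2 encodes the antiviral enzyme viperin. Its signal was 9.83, 9.32 and 4.92, and the last lay below the olfactory receptor level. Set against that level (6.07) in place of the probe's own signal, the vehicle of ET-770 was at least 13.6-fold and that of ET-770-DR at least 9.56-fold higher than the vehicle of RM. IFI44L was at 12.57, 11.73 and 7.97 (24.3-fold and 13.6-fold). IFITM1, a membrane protein that blocks viral entry, was at 12.32, 11.95 and 7.75 (23.6-fold and 18.4-fold). In each case the first and second vehicles lay together and the third lay apart. The experiments differed by limma in the same direction. These genes were picked for standing lowest in the vehicle of RM, and that array enters the test. Its p-values are therefore no separate evidence. For RSAD2 the difference of RM from ET-770 was -4.50 ± 0.22 (SE, adjusted p = 7.0e-05), and for IFITM1 -4.36 ± 0.15 (adjusted p = 3.8e-05). ET-770-DR and ET-770 did not differ past the threshold for RSAD2 (-0.53 ± 0.22, adjusted p = 0.17) or IFITM1 (-0.30 ± 0.15, adjusted p = 0.23). IFITM1, IFITM2 and IFITM3 are related paralogs whose probes may share targets.

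The antiviral effectors and their relatives differed to unequal degrees, and those with large differences are given first. MX1, a GTPase that restricts influenza virus, was at 11.48, 10.42 and 7.32, and MX2 at 9.60, 9.00 and 5.80. The 2′-5′-oligoadenylate synthetases, which activate RNase L, were at 11.65, 10.88 and 7.75 for OAS1 and at 11.42, 10.57 and 7.16 for OAS2. IFI6 was at 13.39, 13.17 and 9.98, IFI27 at 10.94, 10.44 and 6.78, and XAF1, a proapoptotic protein, at 10.84, 10.10 and 6.67. BST2, which tethers budding virus, was at 8.55, 8.96 and 6.01. The chemokine CXCL10 was low throughout, at 6.64, 6.91 and 3.59. MX2, BST2 and CXCL10 lay above the olfactory receptor level only in the vehicles of ET-770 and ET-770-DR, so the size of their drop is uncertain. All the genes from MX1 to CXCL10 named here were called lower in RM than in each of the others. Other effectors differed less. The vehicle of ET-770-DR was above that of RM by 1.53-fold for ISG15, 1.40-fold for IFIT2, 1.70-fold for IFIT3 and 1.19-fold for IFIT5. For IFIT1 it was 4.49-fold. The vehicle of ET-770 was above that of RM by 2.44-fold, 2.16-fold, 2.37-fold, 1.86-fold and 6.64-fold for these genes in the same order. Not every member moved. IRF1, which also answers to interferon-gamma and to NF-kB, was at 8.21, 7.86 and 8.32, and IRF7 (7.94, 7.61 and 7.57) and ISG20 (7.09, 6.92 and 6.82) did not pass the test in either comparison with RM. CXCL11 was the 1 member called higher in ET-770-DR than in ET-770 (4.39, 5.90 and 3.91, adjusted p = 0.013), below the olfactory receptor level in all vehicles.

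The step down between the vehicles of ET-770 and ET-770-DR was smaller. By limma 13 members were lower in ET-770-DR, for example MX1 (-0.89 ± 0.17, adjusted p = 0.033), and 1 was higher, beside 3.58% and 2.43% of all genes. This count was 1 without the vehicle of ET-770, 6 without that of ET-770-DR and 23 without that of RM, 5 with each array centered on its median, and 0 without the treatment term. For RM there were 29 to 34 members lower against ET-770 and 26 to 30 against ET-770-DR over the same alternatives. On the deposited scale, which shifts the median of all genes, the counts were 34 for ET-770-DR against ET-770, 38 for RM against ET-770 and 29 for RM against ET-770-DR.

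The compound arrays of the same experiments gave the same order. Normalized over 6 arrays, RSAD2 was at 9.50, 8.93 and 5.41 in the compound arrays of the experiments in the same order, and IFITM1 at 12.11, 11.86 and 7.96. The median difference of the 38 genes between the compound arrays of RM and ET-770 was -2.02. Within the RM experiment the compound array exceeded the vehicle by a median of 0.34. The low levels were present on both arrays of that experiment.

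**Figure D3:**
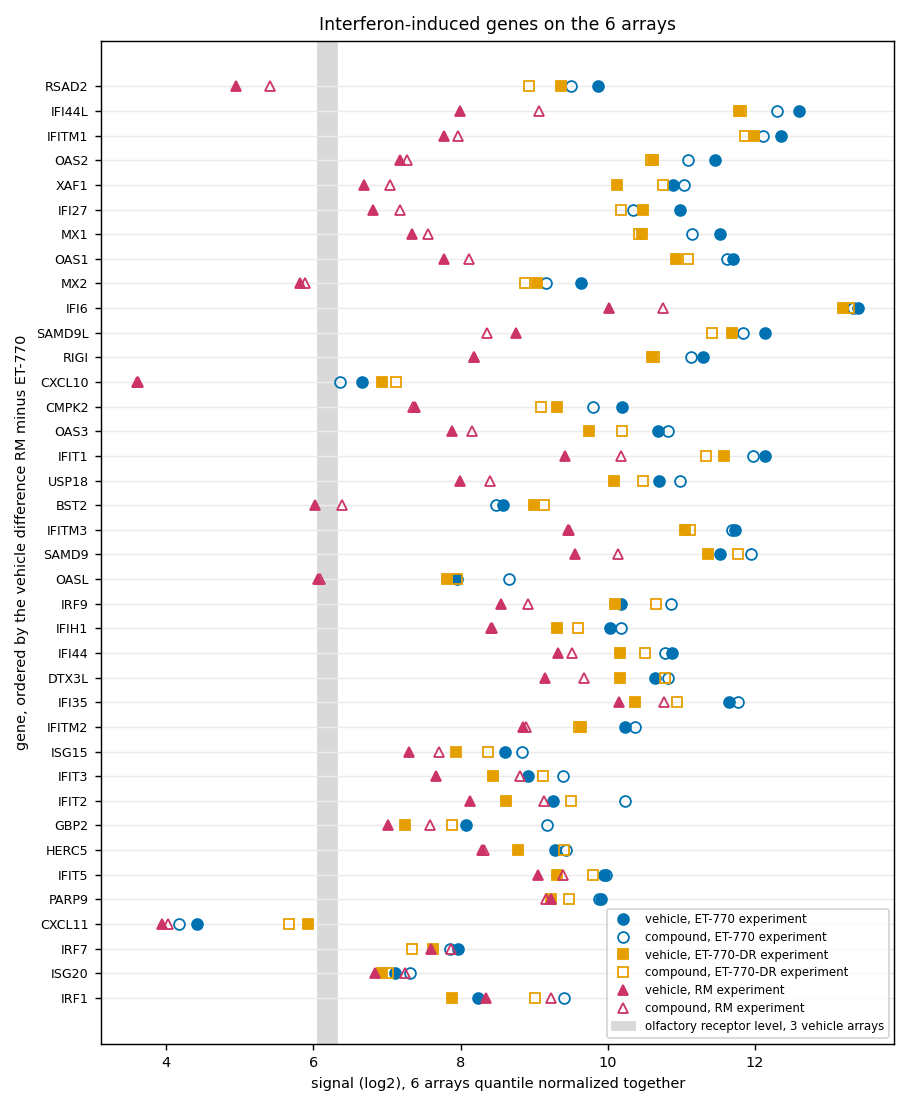
Signal (log2, 6 arrays quantile normalized together, x axis) of the 38 interferon-induced genes (y axis, ordered by the difference between the vehicles of RM and ET-770); filled points are vehicle arrays, open points compound arrays, and the gray band spans the olfactory receptor level of the 3 vehicles. In the upper rows both RM points sit to the left of the points of the other experiments, and the gap closes toward IRF1 at the bottom.

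Upstream of these targets, the genes of the pathway were examined by role, in lists chosen after the values of the interferon-induced genes were seen. The 15 type I and type III interferon genes were at the background for 12, including IFNB1 (4.11, 3.66 and 4.00). IFNL3 was above it at 8.69, 8.57 and 8.31. None of the 15 was called lower in RM. The receptors and their kinases ran in the other direction, with 5 of 9 higher in RM than in each of the other experiments, and 2 lower than in ET-770. Of all genes 17.8% were higher and 20.7% lower than in ET-770, and 20.7% were higher than in ET-770-DR. IFNAR1 was at 9.33, 9.53 and 10.20, IFNAR2 at 7.75, 7.82 and 8.62 and IFNGR1, a receptor of interferon-gamma, at 8.52, 9.05 and 10.04. JAK1 was even at 10.97, 10.87 and 10.91.

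The sensors of viral nucleic acid were lower in the RM experiment for 8 of 11 genes against ET-770, with 1 higher, and for 5 against ET-770-DR. For this and the following lists, 20.7% of all genes were lower and 17.8% higher than in ET-770, and 18.9% lower than in ET-770-DR. Some members, such as RIGI, IFIH1, IRF9 and USP18, were also counted among the interferon-induced genes above, so the lists overlap. RIGI, which detects viral RNA in the cytoplasm and is itself interferon-induced, was at 11.26, 10.56 and 8.16, IFIH1 at 9.99, 9.27 and 8.40, DHX58 at 9.71, 8.60 and 7.74, and the endosomal receptor TLR3 at 9.22, 9.31 and 7.48. Among 13 interferon regulatory factors and STATs, 4 were lower than in ET-770 and 3 lower than in ET-770-DR, near the shares of all genes called lower (20.7% and 18.9%), and none was higher. IRF9, the DNA-binding subunit of the complex, was at 10.15, 10.06 and 8.52, and IRF2 at 10.75, 10.41 and 8.64. Of 7 negative regulators 4 were lower and 1 higher than in ET-770, and 3 lower than in ET-770-DR. USP18, which limits receptor signaling and is also interferon-induced, was at 10.65, 10.05 and 7.96, and PIAS1, a SUMO ligase, at 11.60, 11.57 and 10.03. In class I antigen presentation there was no common direction, with 4 higher and 3 lower of 11 against ET-770. The immunoproteasome subunit PSMB8 was at 9.14, 8.33 and 10.43, and the peptide-loading factor TAPBP at 11.77, 11.63 and 10.52.

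Of the 10 immune markers measured, 5 were above the olfactory receptor level in no vehicle, where a difference cannot be told from the background. By limma 1 was called higher and 1 lower in RM than in ET-770, and the median difference was -0.03. Of all genes 17.8% were higher and 20.7% lower. Against ET-770-DR, 0 markers were higher and 2 lower, with a median of -0.17, and of all genes 20.7% were higher and 18.9% lower. The part of other cells in the result was not tested. On the deposited scale the median difference of the interferon-induced genes was -2.58 between RM and ET-770 and -1.70 between RM and ET-770-DR.

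Outside the interferon response, the gene lists moved by smaller amounts and mostly with members in both directions. In the RM experiment 38 of 71 ribosome biogenesis genes were called higher and 5 lower than in ET-770, and 29 and 5 than in ET-770-DR, with median differences of 0.72 and 0.60. For this and the following lists, the shares of all genes called were 17.8% higher and 20.7% lower than in ET-770, and 20.7% higher and 18.9% lower than in ET-770-DR. UTP3, a factor of the small-subunit processome, was at 7.98, 8.43 and 10.52. Of 46 DNA replication genes 15 were higher and 3 lower than in ET-770, and 18 and 3 than in ET-770-DR. MCM6, a subunit of the replicative helicase, was at 8.99, 9.00 and 11.15. On the deposited scale the median difference of the replication genes from ET-770 turned to -0.08, against -0.66 for all genes. Of 64 cytosolic ribosomal proteins 28 were higher and 6 lower than in ET-770, and of 32 translation factors 12 and 4. Of 23 heat shock genes 10 were higher and 1 lower than in ET-770, among them the chaperonin subunit CCT2 (10.03, 9.97 and 11.62).

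Respiratory chain subunits were split, with 21 of 44 higher and 10 lower in RM than in ET-770. ATP5MC1, which encodes the c subunit of ATP synthase, was at 13.08, 12.81 and 9.52. Other genes of the same family encode an identical mature protein. Lower in the RM experiment were the hypoxia response (11 of 24 lower and 2 higher than in ET-770, 10 and 2 than in ET-770-DR), with the angiogenic factor VEGFA at 11.12, 11.43 and 9.40, and the metallothioneins (5 of 10 lower and 1 higher, 4 and 1), with MT1F at 11.72, 12.07 and 9.89. Of 35 ATF4 and amino acid stress genes 16 were lower and 5 higher. Of 27 p53 targets 9 were higher and 9 lower than in ET-770, and 6 and 9 than in ET-770-DR. Among them CDKN1A, the cyclin-dependent kinase inhibitor p21, was at 9.31, 8.90 and 7.74, and the stress cytokine GDF15 at 9.98, 11.02 and 7.96. For ET-770-DR against ET-770, 8 of 25 cholesterol synthesis genes were called lower and 1 higher, beside 3.58% and 2.43% of all genes. Without the treatment term 0 of all genes were called for this pair. FADS2, a fatty acid desaturase, was at 12.53, 11.19 and 10.49.

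**Figure D4:**
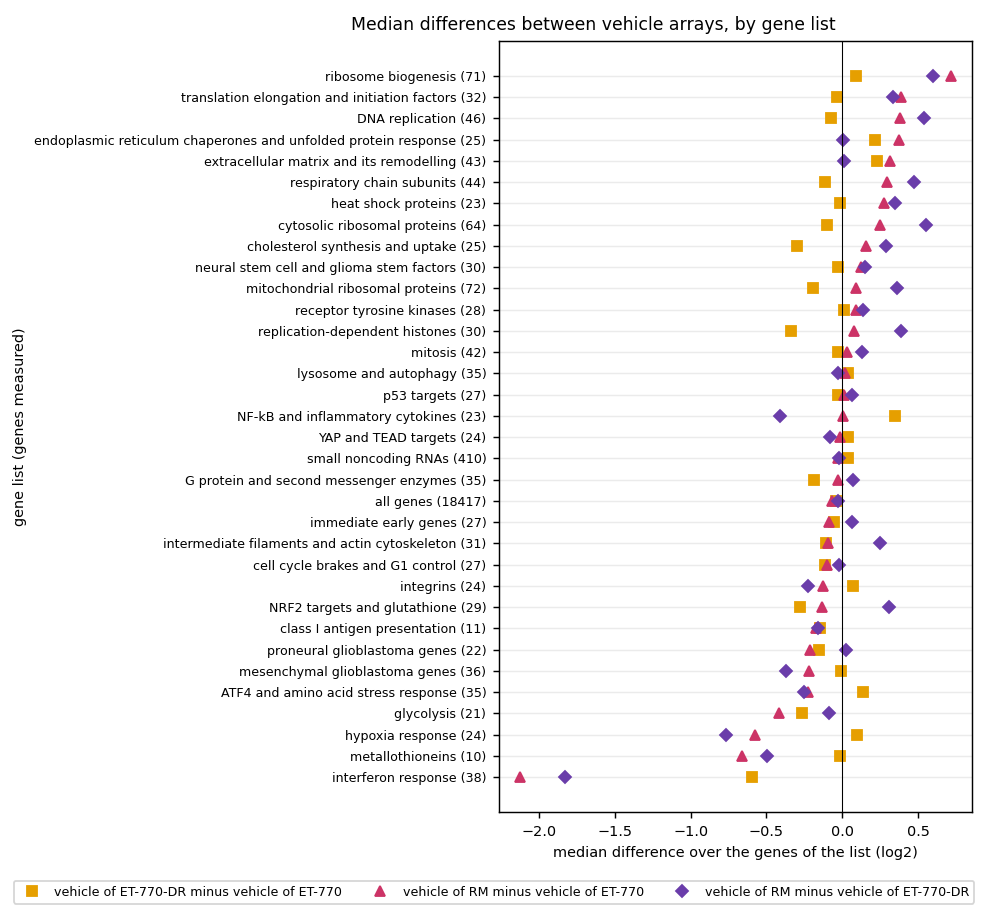
Median difference (log2, x axis) between each pair of vehicles over the genes of each list (y axis, number of genes measured in parentheses), with all genes among the rows. The interferon response lies near -2 for both differences with the vehicle of RM, and the medians of the other lists plotted lie between -0.77 and 0.72.

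Some matrix and lineage genes also differed in the vehicle of RM. The collagen gene COL1A2 was at 10.47, 10.18 and 12.60 and COL5A2 at 9.20, 8.88 and 11.49, and of 43 extracellular matrix genes 16 were higher and 3 lower in RM than in ET-770. FABP7, a fatty acid binding protein of radial glia, was at 10.81, 9.62 and 12.88 and was 4.20-fold and 9.58-fold above the other vehicles. It differed in every comparison by limma, with adjusted p = 0.020 for ET-770-DR against ET-770 and 0.00017 for RM against ET-770. NES, which encodes the neural progenitor filament nestin, was at 8.78, 8.94 and 10.60, and the glutamate transporter SLC1A3 at 9.38, 9.17 and 10.89. Their lists went both ways, with 8 of 30 neural and glioma stem factors higher and 5 lower, and 3 of 12 astrocyte markers higher and 2 lower, in RM than in ET-770. Of all genes 17.8% were higher and 20.7% lower, which also stands beside the matrix counts. The astrocyte marker SOX9 was lowest in the vehicle of RM. CXCL8, a neutrophil chemokine, peaked in the vehicle of ET-770-DR at 8.14, 10.28 and 9.00.

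Genes that stood apart in 1 vehicle were mostly those of RM, with 163 genes (0.885%) more than 3-fold above and 134 (0.728%) more than 3-fold below both others. For the vehicle of ET-770 these counts were 4 and 0, and for that of ET-770-DR 2 and 3. Higher in RM were BCHE, which encodes butyrylcholinesterase (3.04, 2.88 and 7.48), the prolyl isomerase FKBP3 (7.29, 6.96 and 10.23) and MICOS10, a subunit of the complex that shapes mitochondrial cristae (9.17, 9.07 and 11.75). BCHE was below the olfactory receptor level in both other vehicles and, set against that level, was at least 2.24-fold and 2.55-fold higher in RM than in ET-770 and ET-770-DR. Lower in RM, beside RSAD2, IFITM1, IFI44L, IFI27 and XAF1, were the small nucleolar RNAs SNORD41 (12.15, 11.72 and 7.98) and SNORA71D (12.18, 12.29 and 8.75) and the pseudogene SNORD13P3. Apart in the vehicle of ET-770 were GLYATL2 (9.36, 7.35 and 7.33) and TACR1, the receptor of substance P (11.65, 9.96 and 9.61). TACR1 was lower in each compound array, at 8.85, 7.29 and 6.87, and kept the same order there. In the vehicle of ET-770-DR, SNORA14A (6.31, 8.39 and 6.44) and the interstitial collagenase MMP1 (5.21, 6.73 and 5.33) were highest, and the aldo-keto reductase AKR1B10 (6.98, 5.07 and 7.67) was lowest. MMP1 was below the olfactory receptor level in both other vehicles. Set against that level, it was at least 1.32-fold higher than in ET-770 and 1.58-fold higher than in RM. AKR1B10 was below the level in ET-770-DR, and the vehicles of ET-770 and RM were at least 1.80-fold and 2.90-fold higher. The histone genes H4C14 and H4C15, near-identical copies with identical values, were at 12.92, 11.34 and 10.75.

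**Figure D5:**
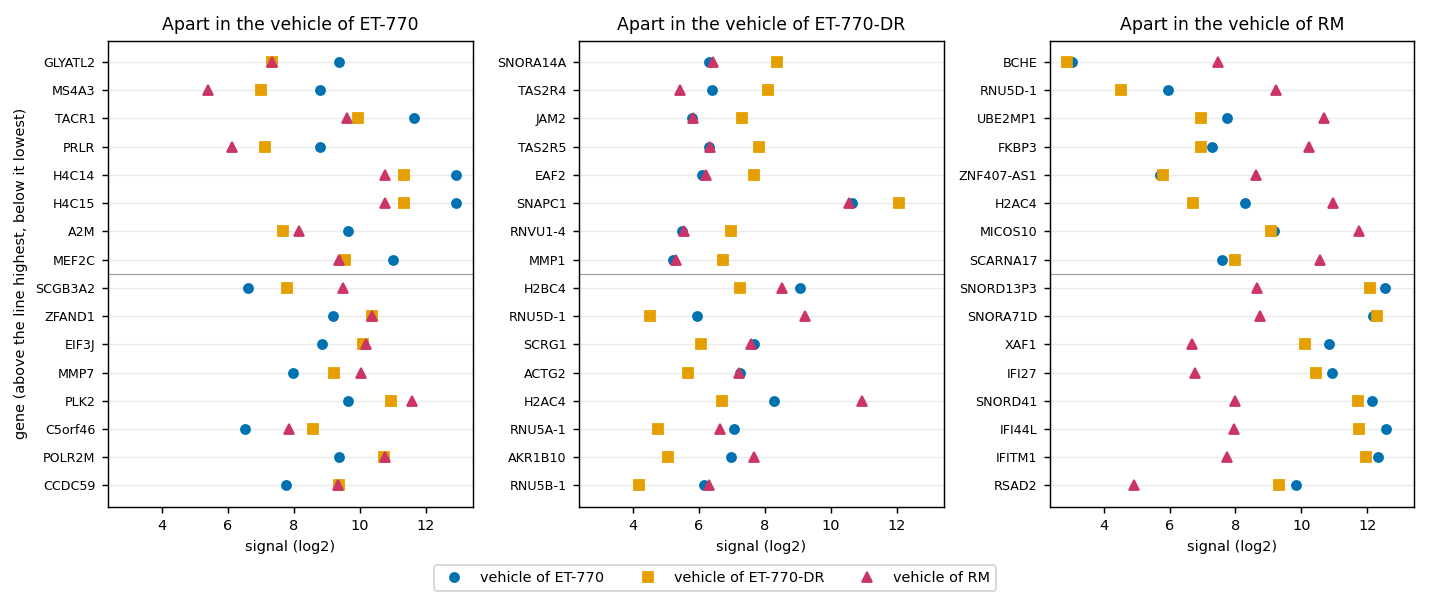
Signal (log2, x axis) in the 3 vehicles of the 8 genes that stood highest (above the line) and the 8 that stood lowest (below it) in each vehicle relative to both others. The distances are widest in the panel of RM, where BCHE is at 7.48 against 3.04 and 2.88, and RSAD2 at 4.92 against 9.83 and 9.32.

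The direction of the differences between vehicles recurred between the compound arrays of the same experiments. Of the genes past 3-fold, the compound arrays had the same sign for 258 of 260 higher and 236 of 237 lower genes for RM against ET-770, for 290 of 291 and 207 of 208 for RM against ET-770-DR, and for 7 of 8 and 13 of 13 for ET-770-DR against ET-770. Fewer were again past 3-fold there, with 136 of 260 higher and 165 of 237 lower genes for RM against ET-770. For RM against ET-770-DR these were 127 of 291 and 130 of 208, and for ET-770-DR against ET-770 4 of 8 and 3 of 13. Over all genes, the vehicle and compound differences correlated at r = 0.858, 0.786 and 0.687 in the same order. The compound arrays come from the same experiments and received different compounds. Of the genes the study follows up, the vehicles carried EGFR at 10.06, 10.12 and 9.17, the focal adhesion kinase gene PTK2 at 10.26, 10.60 and 10.52, GSK3B at 9.16, 8.73 and 9.13, and the phosphatase gene CDC25A at 7.61, 7.50 and 8.19. EGFR was lower in RM than in ET-770 (-0.65 ± 0.16, adjusted p = 0.017 by limma), and CDC25A did not pass the test in any comparison.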

How the data were processed

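The authors extracted total RNA, hybridized it to Human Gene 1.0 ST arrays and processed the scans in Expression Console with the Robust Multiarray Average method; the deposited values are log2 signals. Whether the experiments were normalized in a single run is not stated in the sources used here. Of 33297 probes, the 19460 with 1 gene symbol were averaged into 18417 genes, and 18389 of these matched RefSeq by Entrez ID. The 3 vehicle arrays were quantile normalized together for differences between vehicles, and all 6 arrays for limma 3.58.1 (R 4.3.3; 2 residual degrees of freedom; Benjamini-Hochberg over all genes, threshold 0.05). Code was tested on simulated data. The number of arrays limits the precision. Named were the 15 genes of highest mean, the 8 highest and 8 lowest apart in each vehicle, 3 members of each list with the widest range, the markers and genes the study discusses; further pathway members were chosen after their values were seen. The members and lists were chosen with earlier results of these data known. Alternatives were another scaling, probe rule, threshold or model, and leaving out each vehicle.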

Additional observations from a re-analysis of the deposited data

How the results depend on the processing

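Genes in the top 10% of all vehicles numbered 1234, and 544 at the top 5%; leaving out each vehicle gave 1314 to 1624. Leaving out vehicles gave 12759 to 13014 genes above the olfactory receptor level. Past 3-fold, ET-770-DR against ET-770 gave 21 genes, 120 on the deposited scale and 214 at 2-fold; RM against ET-770 gave 497, then 1030 and 2197; RM against ET-770-DR gave 499, and 2238 at 2-fold. By limma, the 1106 genes between ET-770-DR and ET-770 became 14668 on the deposited scale, 431 with median centering, 0 without the treatment term (2399 at an unadjusted p under 0.05) and 73 to 3476 when each vehicle was left out. The 7089 between RM and ET-770 became 13258 on the deposited scale, 2152 without the treatment term and 3664 to 8075 without each vehicle; the 7285 between RM and ET-770-DR became 2242 without the term and 6044 to 6983. Of interferon-induced genes, 0 were more than 3-fold lower in ET-770-DR than in ET-770, with 4 on the deposited scale and 2 at 2-fold; the 13 called lower by limma became 34 on the deposited scale, 5 with centering, 0 without the term and 1 to 23. For RM the interferon counts stayed within 1.5 times under each alternative run, at 29 to 38 and 26 to 32 by limma, and leaving out vehicles gave 31 to 34 and 29 to 30. The interferon alternatives and the replacement of vehicles by compound arrays were chosen after seeing the data. No direction of the 46 genes that stood apart turned under the 4 alternatives run, although on the deposited scale 24 of their 48 differences moved. No paired analysis was possible because the replicate numbers of the vehicles name the experiments, which are what was compared, and each compound has 1 array.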

Other observations

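Small noncoding RNAs, a list chosen after the values were seen, were called by limma about as often as genes at large. Of 410 measured, 82 were higher and 94 lower in RM than in ET-770 (17.8% and 20.7% of all genes were). In the vehicle of RM, 14 of the 410 were more than 3-fold above and 18 more than 3-fold below both other vehicles. These were larger shares than the 0.885% and 0.728% of all genes, so at 3-fold between vehicles the list did not behave like genes at large. SNORD41 and SNORA71D were among the lowest and SCARNA17 and RNU5D-1 among the highest in the vehicle of RM.

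Along the chromosomes, the median difference of the vehicle of RM from the mean of the others was taken over 12408 windows of 40 neighboring genes, and these medians had an SD of 0.14. The highest was 0.55 on chromosome 2 from CLHC1 to PPP3R1, where the compound arrays gave 0.43 and 29 of 40 genes were higher. On chromosome 19, from NCAN to ZNF91, it was -0.45 with -0.73 in the compound arrays, and 31 of 40 genes were lower. These windows were picked for their values and have no test.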
